A study of Homo sapiens with 9 samples.

Results

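Wnt ligand genes and the genes of the receptors that bind Wnts or R-spondins were followed across blood cells made from human embryonic stem cells. They were taken as every row of the count table whose symbol is WNT followed by a number and an optional A or B, FZD followed by a number, or LRP5, LRP6, RYK, ROR1, ROR2, LGR4, LGR5 or LGR6. The rule found 36 of the 21229 genes in the table, of which 18 are Wnt ligands, 10 are Frizzled receptors and 8 are co-receptors or other receptors. The rule reads symbols and no measured value.

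All 9 RNA-seq libraries came from haematopoietic cells differentiated from the H1 line of embryonic stem cells, and each of the 3 groups had 3 libraries. The GATA2 overexpression group was CD90+ cells with extra GATA2, a zinc-finger transcription factor of blood stem and progenitor cells. The CD90+ control group carried the same surface marker without overexpression, and the CD38+ control group had the control genotype and CD38 on the surface. All groups therefore share 1 parent line, and no source used here says how GATA2 was overexpressed or how the surface markers were used to collect the cells. Nothing in the labels says that replicate libraries were grown as separate cultures, so p-values measure the spread between these libraries, which may be technical.

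Wnts are secreted, lipid-modified glycoproteins. In the canonical branch a Wnt binds a Frizzled receptor together with LRP5 or LRP6, which spares beta-catenin from degradation so that it can act with TCF/LEF factors on target genes. In the non-canonical branches Wnts such as WNT5A act through Frizzled receptors with ROR1, ROR2 or RYK on cell polarity and movement. R-spondins, bound by LGR4, LGR5 or LGR6, raise the amount of Frizzled at the surface by holding back the ubiquitin ligases ZNRF3 and RNF43. When pluripotent cells are turned into blood, Wnt signalling patterns the mesoderm and bears on which wave of blood cells forms.

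Library totals were 37500192 to 39582736 counts with GATA2 overexpression, 42577569 to 47261093 in CD90+ controls and 42695005 to 45561088 in CD38+ controls, and values below are TMM-scaled CPM, read counts brought to a common library size, unless a sentence says otherwise. GATA2 itself averaged 376 ± 12.8 CPM with GATA2 overexpression, 87.3 ± 1.93 CPM in CD90+ controls and 569 ± 16.3 CPM in CD38+ controls (SD, n = 3 each). THY1, which encodes CD90, averaged 3.06 ± 0.439, 4.43 ± 0.632 and 0 CPM in the same order of groups, so its level in both CD90+ groups was low and it had 0 counts in the CD38+ control libraries. CD38 averaged 2.23 ± 0.514, 4.37 ± 0.382 and 122 ± 2.40 CPM in that order. A gene was called higher or lower when its adjusted p in edgeR's quasi-likelihood test, corrected by Benjamini-Hochberg over all 16232 genes tested, was under 0.05, and the value after ± beside a log2 fold change is its SE. Of the 36 genes 29 had enough counts for that test. The other 7 were LGR6, WNT3, WNT6, WNT7A, WNT7B, WNT10A and WNT16.

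With GATA2 overexpression most Wnt ligand genes fell relative to CD90+ controls, and the ligands WNT5B and WNT9A and the receptors FZD3, FZD7 and LGR4 were not called. Of the 29 tested genes 24 were called, 21 of them lower and 3 higher, where 77.6% of all genes tested were called, 39.6% lower and 38.0% higher. By at least 2-fold, 17 fell and 0 rose, against 21.4% and 7.98% of all genes. Among ligands 10 of 12 tested ligands fell and 0 rose, with a median log2 fold change of -2.32, against -0.04 over all genes. WNT2, WNT3A, WNT8A and WNT8B could be tested only because they were high in CD90+ controls, and of the other 8 ligands 6 fell, at a median of -1.67. Among Frizzled receptors 7 of 10 fell and 1 rose, and their median log2 fold change was -0.93. The 3 genes that rose, FZD6, LRP5 and RYK, did so by less than 0.25 on the log2 scale, and they are at -0.01, -0.01 and -0.04 when counts are scaled by library size alone, so that their direction rests on the scaling.

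Part of these counts is set by which genes could be tested. FZD10, LGR5, WNT2, WNT3A, WNT8A and WNT8B had enough counts only in CD90+ controls, so each of the 6 had to be high there to be tested at all, and all 6 fell with GATA2 overexpression. Among the other 23 tested genes 15 fell, 3 rose and 5 were not called, with a median log2 fold change of -0.80. Over all 36 genes, tested or not, the 3 GATA2 overexpression libraries lay below the 3 CD90+ control libraries for 23 genes, above them for 3 and overlapped with them for 10. The share of tested genes in the whole table with libraries that do not overlap was 41.1% lower and 39.3% higher. Since 1 library is a bulk of many cells, fewer cells of a type and less RNA per cell cannot be told apart.

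CD90+ controls held more Wnt ligand and receptor RNA than CD38+ controls for most of the genes. Of the 29 tested genes 22 were higher and 4 lower, where 80.4% of all genes tested were called, 41.1% higher and 39.3% lower. By at least 2-fold, 20 were higher and 1, LRP5, was lower, against 22.6% and 13.6% of all genes. Of the 12 tested ligands 10 were higher and 1, WNT10B, was lower, with a median log2 fold change of 3.03 where that of all genes was 0.03. Without the 4 ligands tested only through CD90+ controls, 6 of 8 were higher and 1 lower, at a median of 2.45. Over all 36 genes the CD90+ control libraries lay above the CD38+ control libraries for 28 and below them for 4, against 42.5% and 40.4% of the genes tested. Of the 23 genes that did not pass through CD90+ controls alone, 16 were higher and 4 lower.

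Set against CD38+ controls, GATA2 overexpression CD90+ cells had 14 of the 29 tested genes higher and 6 lower, where 83.2% of all genes tested were called, 43.3% higher and 39.9% lower. Over all 36 genes the libraries did not overlap for 14 that were higher and 6 that were lower, against 42.9% and 40.0% of the genes tested. The median log2 fold change of the 29 was 0.52 and that of all genes was 0.07. By at least 2-fold, 12 were higher and 4 lower, against 23.0% and 21.2% of all genes. FZD2, FZD3, FZD4, FZD7, FZD10, LGR4, LGR5, ROR1, RYK, WNT3A, WNT4, WNT5A, WNT5B and WNT11 were the genes that were higher, and FZD1, FZD6, FZD9, LRP5, LRP6 and WNT10B were the 6 that were lower. FZD10, LGR5 and WNT3A were tested only through CD90+ controls and had 0 counts in CD38+ controls. Without the 6 genes tested only that way, 11 of 23 were higher, 6 lower and 6 not called, at a median of 0.38. The 3 comparisons share libraries in pairs, so their values are given side by side and not counted against each other.

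The summed markers of several other cell types were also lower with GATA2 overexpression than in CD90+ controls and higher in CD90+ than in CD38+ controls, and their part in the result was not tested. Of 8 mesenchymal markers 8 fell with GATA2 overexpression relative to CD90+ controls and 8 were higher in CD90+ than in CD38+ controls. Over all genes tested these shares were 39.6% and 41.1%, the background of each marker list here. Their summed level was 260.3 to 278 CPM with GATA2 overexpression, 1089.7 to 1109 CPM in CD90+ controls and 14.2 to 15.3 CPM in CD38+ controls, where POSTN was at 0. Epithelial and endoderm markers summed to 703 to 709.7, 1065 to 1074 and 358 to 373 CPM in that order of groups, and 7 of 8 fell and 1 rose with GATA2 overexpression. Cardiac markers summed to 35.004 to 36.1, 89.4 to 91.3 and 0.266 to 0.576 CPM, and 5 of 5 fell. Neural markers summed to 5.06 to 5.71, 18.9 to 20.9 and 2.31 to 2.81 CPM, with SOX2 at 0 in CD38+ controls, and 4 of 5 fell.

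The summed blood markers moved the other way between the CD90+ groups. Their sum was 1460.0 to 1488 CPM with GATA2 overexpression, 749 to 773 CPM in CD90+ controls and 882 to 959.7 CPM in CD38+ controls. With GATA2 overexpression 5 of 6 rose and PTPRC fell, where 38.0% of all genes tested rose and 39.6% fell. PTPRC averaged 36.4 ± 5.09, 118 ± 10.7 and 257 ± 32.4 CPM in the 3 groups (SD, n = 3 each). ITGA2B (687 and 338 CPM) and CD34 (389 and 122 CPM) gave most of the sum in the CD90+ groups. In CD90+ relative to CD38+ controls 2 were higher, 3 lower and 1 not called. Endothelial markers summed to 767 to 803, 464 to 473 and 500.1 to 534 CPM in the same order of the 3 groups. Of these 5 of 6 rose with GATA2 overexpression and KDR fell, from 55.0 CPM in CD90+ controls to 29.3 CPM. In CD90+ relative to CD38+ controls 3 of the 6 endothelial markers were higher, 1 was lower and 2 were not called. KDR, TEK and CDH5 lay higher in every CD90+ control library than in any CD38+ control library. PECAM1 lay lower, at 178 ± 3.63 and 312 ± 9.03 CPM, and gave most of the endothelial sum in CD38+ controls. Macrophage markers had another order, at 221 to 244, 1665 to 1697 and 885 to 941 CPM: 7 of 7 fell with GATA2 overexpression relative to CD90+ controls and 7 of 7 were lower than in CD38+ controls, while 5 were higher in CD90+ than in CD38+ controls and 2, CD14 (29.6 ± 1.59 and 344 ± 11.3 CPM) and CD163 (51.0 ± 1.57 and 89.5 ± 4.42 CPM), were lower. CSF1R alone averaged 228 ± 10.3, 1068 ± 14.4 and 416 ± 12.9 CPM in the 3 groups (SD, n = 3 each). Mast cell markers summed to 121 to 132, 86.2 to 88.7 and 1453 to 1489.8 CPM, and 5 of 5 rose with GATA2 overexpression. HDC alone averaged 42.6 ± 1.31, 31.4 ± 0.504 and 1300.3 ± 18.7 CPM (SD, n = 3 each) and gave most of the sum in CD38+ controls. Of the 5 markers 1 was higher, 3 were lower and 1 was not called in CD90+ relative to CD38+ controls. KIT lay higher in every CD90+ control library than in any CD38+ control library. Of 2 tested pluripotency markers 1 rose and 1 fell, and POU5F1 was at 0 in the libraries with GATA2 overexpression and in the CD38+ control libraries.

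Among the ligands, WNT1, the canonical founding member of the family, WNT8A and WNT8B, of a class that acts through beta-catenin, and WNT5B, a non-canonical Wnt, show how differently the ligands behaved, and their promoters are given for that reason. Each sequence runs 5′ to 3′ on the gene's strand from 250 bases before to 50 bases after a RefSeq start site in GRCh38.p14, and capitals mark CG dinucleotides and, in WNT8B, also the GATA motif AGATAA. WNT1 lies on the plus strand at chr12:48978072-48978371, WNT8A on the plus strand at chr5:138083783-138084082, WNT8B on the plus strand at chr10:100462759-100463058, and the first of 2 WNT5B starts on the plus strand at chr12:1616806-1617105.
WNT1: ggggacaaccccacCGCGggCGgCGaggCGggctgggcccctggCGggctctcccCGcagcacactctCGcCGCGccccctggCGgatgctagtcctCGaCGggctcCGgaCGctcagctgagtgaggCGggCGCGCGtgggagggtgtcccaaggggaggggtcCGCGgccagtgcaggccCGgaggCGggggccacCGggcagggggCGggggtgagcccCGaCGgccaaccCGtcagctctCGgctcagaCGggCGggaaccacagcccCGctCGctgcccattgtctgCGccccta
WNT8A: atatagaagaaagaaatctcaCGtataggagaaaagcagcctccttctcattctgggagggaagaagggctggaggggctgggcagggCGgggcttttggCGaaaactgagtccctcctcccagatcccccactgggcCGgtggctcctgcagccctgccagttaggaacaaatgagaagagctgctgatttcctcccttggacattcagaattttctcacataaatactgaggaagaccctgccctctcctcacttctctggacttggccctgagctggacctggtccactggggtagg
WNT8B: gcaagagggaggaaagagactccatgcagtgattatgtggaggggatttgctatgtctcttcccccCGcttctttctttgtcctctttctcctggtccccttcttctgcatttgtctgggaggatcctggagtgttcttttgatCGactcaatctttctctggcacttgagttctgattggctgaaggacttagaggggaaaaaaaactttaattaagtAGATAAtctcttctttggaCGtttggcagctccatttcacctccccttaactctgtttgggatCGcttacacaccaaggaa
WNT5B: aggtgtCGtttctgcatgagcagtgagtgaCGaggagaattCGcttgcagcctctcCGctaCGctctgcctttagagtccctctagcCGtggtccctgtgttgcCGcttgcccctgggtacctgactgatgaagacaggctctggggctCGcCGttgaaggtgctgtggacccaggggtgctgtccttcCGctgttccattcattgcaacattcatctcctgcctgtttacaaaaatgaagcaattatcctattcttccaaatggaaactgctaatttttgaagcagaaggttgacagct
The WNT1 promoter holds 34 CG dinucleotides, those of WNT8A and WNT8B 4 each and that of WNT5B 10, where the median over 35116 RefSeq promoters was 14 with quartiles of 4 and 28. WNT8A and WNT8B, with the CG-poor promoters, could be tested only because they were high in CD90+ controls. The other matched ligands that fell, WNT1, WNT2, WNT2B, WNT3A, WNT4 and WNT5A, held 18 to 49 CG dinucleotides per promoter. Whether CG content goes with the fall was not tested. AGATAA, searched on both strands, is held by 10.3% of all these promoters. Of the 26 matched genes, which have 31 promoters, 2 hold it. These are WNT8B, where it starts 31 bases before the start site, and LGR6 at 1 of its starts. The TCF motif CTTTGA, also on both strands, is held by 12.9% of all promoters and by 0 of the 26, which says only that these letters are not in the windows. FZD2, FZD3, FZD6, FZD7, FZD10, LGR5, LRP6, WNT7B, WNT10B and WNT11 were not matched.

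WNT1 had 0.594, 0.397 and 0.435 CPM in the GATA2 overexpression libraries, 3.99, 3.61 and 3.99 CPM in the CD90+ control libraries and 0.160, 0.454 and 0.225 CPM in the CD38+ control libraries. Every GATA2 overexpression library was below every CD90+ control library, and the CD38+ control libraries overlapped with those with GATA2 overexpression. The log2 fold change of WNT1 was -3.01 ± 0.26 with GATA2 overexpression relative to CD90+ controls (edgeR adjusted p = 1.54e-08). Between CD90+ and CD38+ controls it was 3.78 ± 0.29 (edgeR adjusted p = 1.9e-09). Between GATA2 overexpression CD90+ and CD38+ controls it was not called (log2 fold change 0.77 ± 0.35, edgeR adjusted p = 0.0537), and it was called higher with library size (0.93, adjusted p = 0.022) and upper-quartile scaling (0.91, adjusted p = 0.0237), without CD38+ control replicate 2 (1.29, adjusted p = 0.00392) or on leaving out GATA2 overexpression replicate 2 (0.89, adjusted p = 0.0442).

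WNT10B, a canonical Wnt known for turning mesenchymal precursors toward bone in the mouse, is the neighbour of WNT1: the genes lie on opposite strands of chromosome 12 with 6.7 kb between them, WNT10B at chr12:48965340-48971763. It had 0.207, 0.371 and 0.299 CPM in the GATA2 overexpression libraries, 3.2996, 2.503 and 3.56 CPM in the CD90+ control libraries and 4.23, 4.41 and 4.58 CPM in the CD38+ control libraries. WNT10B was the ligand with the lowest adjusted p among those that fell with GATA2 overexpression, and unlike WNT1 it was higher in every CD38+ control library than in any CD90+ control library. Its log2 fold change was -3.41 ± 0.24 with GATA2 overexpression relative to CD90+ controls, 10.6-fold lower (edgeR adjusted p = 9.12e-10). With GATA2 overexpression relative to CD38+ controls it was -3.90 ± 0.24, 15.0-fold lower (edgeR adjusted p = 8.98e-11). CD90+ controls were below CD38+ controls, with a log2 fold change of -0.50 ± 0.18 (edgeR adjusted p = 0.0165), and this call was lost on leaving out CD90+ control replicate 2 (-0.36, adjusted p = 0.1) and with library size scaling (-0.09, adjusted p = 0.65) or upper-quartile scaling (-0.24, adjusted p = 0.227).

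WNT5A and WNT5B are close paralogs and non-canonical ligands of ROR receptors. WNT5A had 0.646, 0.742 and 0.788 CPM in the GATA2 overexpression libraries, 4.75, 4.23 and 3.201 CPM in the CD90+ control libraries and 0.0266, 0.107 and 0.0501 CPM in the CD38+ control libraries. WNT5B had 11.7, 11.2 and 8.83 CPM in the GATA2 overexpression libraries, 9.997, 12.1 and 11.1 CPM in the CD90+ control libraries and 1.303, 1.02 and 0.751 CPM in the CD38+ control libraries. Both were near 0 or low in CD38+ controls and higher in CD90+ controls, and of the pair only the WNT5A libraries separated between the CD90+ groups. WNT5A fell with GATA2 overexpression, with a log2 fold change relative to CD90+ controls of -2.48 ± 0.23 (edgeR adjusted p = 3.83e-08). For WNT5B the same comparison gave a log2 fold change of -0.07 ± 0.14 (edgeR adjusted p = 0.678). Against CD38+ controls, CD90+ controls had WNT5A at a log2 fold change of 5.99 ± 0.34 (edgeR adjusted p = 4.19e-11), or 6.61 without CD38+ control replicate 2. WNT5B had a log2 fold change of 3.44 ± 0.18 there (edgeR adjusted p = 1.17e-11). Between GATA2 overexpression CD90+ and CD38+ controls WNT5A was still higher, at a log2 fold change of 3.51 ± 0.42 (edgeR adjusted p = 6.21e-07), or 4.13 without CD38+ control replicate 2. WNT5B was higher by 3.37 ± 0.18 on the log2 scale (edgeR adjusted p = 1.29e-11). Whether the paralogs' changes with GATA2 overexpression differ was not tested.

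WNT11, a non-canonical Wnt of cell movement and heart formation, had 4.57, 4.34 and 4.19 CPM in the GATA2 overexpression libraries, 6.99, 6.802 and 7.15 CPM in the CD90+ control libraries and 1.62, 2.06 and 2.53 CPM in the CD38+ control libraries. The groups did not overlap, and GATA2 overexpression libraries sat between the control groups. With GATA2 overexpression its log2 fold change relative to CD90+ controls was -0.68 ± 0.15 (edgeR adjusted p = 0.00054). Relative to CD38+ controls, CD90+ controls were at a log2 fold change of 1.75 ± 0.16 (edgeR adjusted p = 1.94e-08).

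By CPM, which is not scaled to exon length, WNT2, WNT2B and WNT4 made up the lower ranks of the ligands that reached 1 CPM in a group. WNT2, which with WNT2B is needed for lung specification in the mouse, had 0.207, 0.397 and 0.109 CPM in the GATA2 overexpression libraries, 0.687, 1.31 and 1.11 CPM in the CD90+ control libraries and 0.106, 0.294 and 0.100 CPM in the CD38+ control libraries. WNT2B had 0.413, 0.874 and 0.897 CPM in the GATA2 overexpression libraries, 3.12, 3.701 and 2.98 CPM in the CD90+ control libraries and 0.452, 0.856 and 0.376 CPM in the CD38+ control libraries. In both genes the CD90+ control libraries stood above all others, and the other groups overlapped. WNT2 fell with GATA2 overexpression, at a log2 fold change of -2.11 ± 0.47 (edgeR adjusted p = 0.000687). WNT2B fell by 2.17 ± 0.29 on the log2 scale (edgeR adjusted p = 3.3e-06). WNT2 in CD90+ controls against CD38+ controls was at a log2 fold change of 2.62 ± 0.50 (edgeR adjusted p = 0.000139), or 3.29 without CD38+ control replicate 2. WNT2B was at a log2 fold change of 2.54 ± 0.30 in that comparison (edgeR adjusted p = 6.49e-07). Relative to CD38+ controls, neither was called in GATA2 overexpression CD90+ cells, with log2 fold changes of 0.52 and 0.38, and WNT2B was called without CD38+ control replicate 2 (0.81, adjusted p = 0.0476). About 21.2% of the exon length of WNT2B overlaps ST7L on the opposite strand. Whether strand was used in counting is not given, and ST7L itself averaged 29.3 CPM with GATA2 overexpression, 20.7 CPM in CD90+ controls and 17.9 CPM in CD38+ controls, so it rose with GATA2 overexpression (log2 fold change 0.50 ± 0.07, edgeR adjusted p = 5.25e-06) where WNT2B fell.

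WNT4, a Wnt of kidney and ovary formation, had 0.749, 0.980 and 0.353 CPM in the GATA2 overexpression libraries, 1.45, 1.61 and 1.63 CPM in the CD90+ control libraries and 0.0532, 0.267 and 0.576 CPM in the CD38+ control libraries. The CD90+ control libraries were highest, and the other groups overlapped. It fell with GATA2 overexpression, with a log2 fold change of -1.17 ± 0.42 (edgeR adjusted p = 0.0174), a call lost on leaving out GATA2 overexpression replicate 3 (-0.86, adjusted p = 0.0749). CD90+ controls were above CD38+ controls by 2.36 ± 0.47 on the log2 scale (edgeR adjusted p = 0.000191), or 3.27 without CD38+ control replicate 3. Against CD38+ controls, GATA2 overexpression CD90+ cells were called higher at 1.19 ± 0.51 (edgeR adjusted p = 0.0388) although libraries overlapped. That call was lost on leaving out CD38+ control replicate 1 (adjusted p = 0.14) or 2 (adjusted p = 0.0898) and on leaving out GATA2 overexpression replicate 1 (adjusted p = 0.0729) or 2 (adjusted p = 0.159), and the value was 2.10 without CD38+ control replicate 3. The call was also lost in the fit of these groups alone (1.19, edgeR adjusted p = 0.072).

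WNT3A, WNT8A and WNT8B, canonical Wnts known from the early embryo, were low in CPM in every library and had most of their counts in CD90+ controls. Per kb of exon in CD90+ controls, WNT8B (0.436 CPM per kb) and WNT3A (0.306) were above WNT2B (0.260) and WNT2 (0.230). WNT3A had 0.0517, 0.0530 and 0.163 CPM in the GATA2 overexpression libraries, 1.02, 0.707 and 0.966 CPM in the CD90+ control libraries and 0 counts in the 3 CD38+ control libraries. WNT8A, at chr5:138083892-138092365, had 0 counts in the 3 GATA2 overexpression libraries, 0.412, 0.308 and 0.342 CPM in the CD90+ control libraries and 0 counts in the 3 CD38+ control libraries. WNT8B, at chr10:100463041-100483744, had 0, 0 and 0.136 CPM in the GATA2 overexpression libraries, 0.805, 1.07 and 0.886 CPM in the CD90+ control libraries and 0.0266, 0 and 0.0501 CPM in the CD38+ control libraries. The counts behind these values were 10, 139 and 0 for WNT3A summed over GATA2 overexpression, CD90+ control and CD38+ control libraries, 0, 55 and 0 for WNT8A, and 5, 144 and 3 for WNT8B. WNT3A fell with GATA2 overexpression, at a log2 fold change of -3.30 ± 0.53 (edgeR adjusted p = 4.2e-05), or -4.03 without GATA2 overexpression replicate 3. WNT8B fell too, at a log2 fold change of -4.29 ± 0.70 (edgeR adjusted p = 3.11e-05), and all 5 of its counts with GATA2 overexpression came from replicate 3, so that the group was at 0 counts without it. With the 3-count limit over the group standing in for 0, WNT8A was at least 13.3-fold lower with GATA2 overexpression than in CD90+ controls, and at least 13.5-fold higher in CD90+ than in CD38+ controls. WNT3A was at least 34.2-fold higher in CD90+ than in CD38+ controls, and WNT8B was 35.4 times as high, with a 95% counting interval of 11.9 to 174 (fitted log2 fold change 4.99, or 5.83 without CD38+ control replicate 3).

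WNT9A, which acts with a Frizzled of the FZD9 kind in stem cell expansion in zebrafish, had 0.956, 0.583 and 0.788 CPM in the GATA2 overexpression libraries, 0.766, 0.889 and 0.664 CPM in the CD90+ control libraries and 0.186, 0.802 and 0.801 CPM in the CD38+ control libraries. Libraries of all 3 groups overlapped and it was called in no comparison, with log2 fold changes of 0.00, 0.37 and 0.37 for GATA2 overexpression against CD90+ control, CD90+ against CD38+ control and GATA2 overexpression against CD38+ control. The 6 ligands without a test averaged 0 to 0.0895 CPM with GATA2 overexpression, 0.0255 to 0.324 CPM in CD90+ controls and 0 to 0.147 CPM in CD38+ controls. WNT6 and WNT7B lay lower in all GATA2 overexpression libraries than in all CD90+ control libraries, WNT7B with 0 counts in all 3 and so at least 7.76-fold lower. WNT6 had 0 counts in CD38+ controls and was at least 12.3-fold higher in CD90+ controls. WNT16, needed for blood stem cell formation in zebrafish, had 10, 27 and 17 counts in GATA2 overexpression, CD90+ control and CD38+ control libraries, and WNT3 had 7, 4 and 0.

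**Figure D1:**
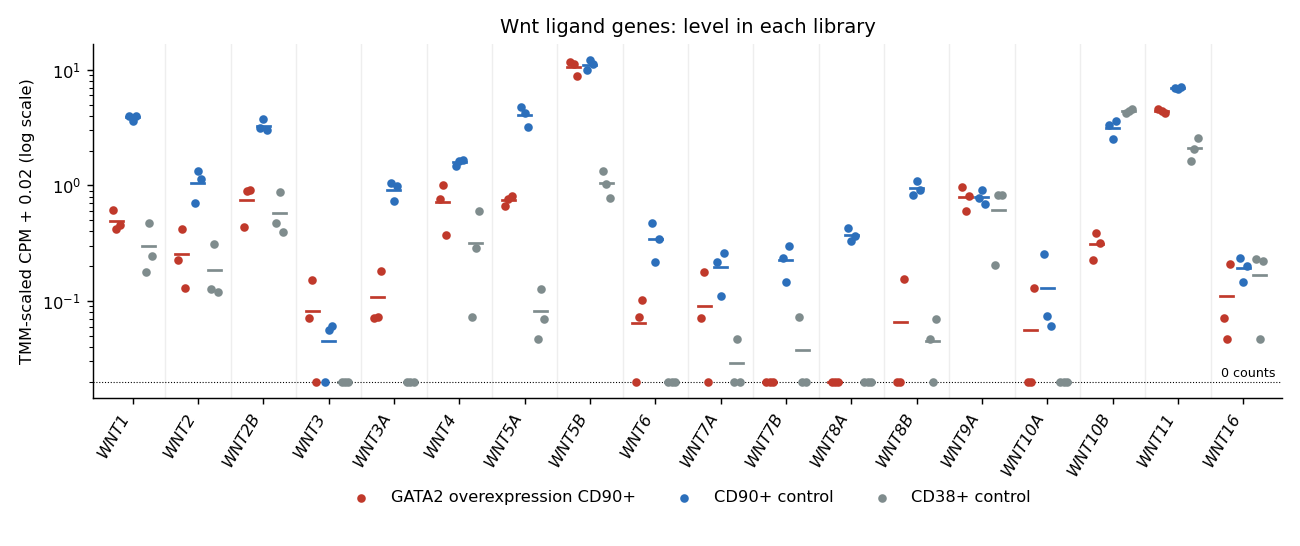
Level of the 18 Wnt ligand genes in each library, as TMM-scaled CPM plus 0.02 on a log axis, with a bar at the mean of each group of 3 and a dotted line at 0 counts. WNT1, WNT5A and WNT10B stand lower in the GATA2 overexpression libraries than in the CD90+ control libraries, while the WNT5B and WNT9A libraries of these groups overlap.

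FZD2, FZD1 and FZD7 form the Frizzled subfamily to which the main Frizzled of human embryonic stem cells, FZD7, belongs. FZD2, at chr17:44557459-44559570, had 12.4, 13.2 and 10.5 CPM in the GATA2 overexpression libraries, 19.7, 21.99 and 21.3 CPM in the CD90+ control libraries and 3.403, 3.903 and 3.004 CPM in the CD38+ control libraries. The 3 groups did not overlap, with GATA2 overexpression libraries between the controls. FZD2 fell with GATA2 overexpression, by 0.80 ± 0.10 on the log2 scale (edgeR adjusted p = 1.84e-06). It was higher in CD90+ than in CD38+ controls, at a log2 fold change of 2.61 ± 0.11 (edgeR adjusted p = 1.16e-12). FZD1 had 1.498, 1.64 and 1.33 CPM in the GATA2 overexpression libraries, 3.32, 2.68 and 4.69 CPM in the CD90+ control libraries and 3.297, 2.94 and 4.11 CPM in the CD38+ control libraries. Here the GATA2 overexpression libraries were lowest and the control groups overlapped. FZD1 fell with GATA2 overexpression, at a log2 fold change of -1.25 ± 0.22 (edgeR adjusted p = 6.19e-05). Between the controls it was not called, at a log2 fold change of 0.04 ± 0.20 (edgeR adjusted p = 0.847), and it was called higher with library size scaling (0.45, adjusted p = 0.0495). FZD7 had 11.1, 10.8 and 9.49 CPM in the GATA2 overexpression libraries, 9.37, 10.8 and 10.5 CPM in the CD90+ control libraries and 9.04, 7.67 and 8.21 CPM in the CD38+ control libraries. Its CD90+ groups overlapped, with a log2 fold change of 0.03 ± 0.11 (edgeR adjusted p = 0.779), and it turned to -0.02, -0.22 and -0.08 with RLE, library size and upper-quartile scaling. FZD7 was higher in CD90+ than in CD38+ controls by 0.30 ± 0.11 on the log2 scale (edgeR adjusted p = 0.0168), a call lost on leaving out CD38+ control replicate 2 (0.24, adjusted p = 0.0694) or CD90+ control replicate 2 (0.26, adjusted p = 0.0607).

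FZD4, FZD9 and FZD10 form another subfamily. FZD4, the Norrin receptor of retinal vessels, had 1.83, 1.67 and 0.870 CPM in the GATA2 overexpression libraries, 4.498, 4.08 and 4.31 CPM in the CD90+ control libraries and 0, 0.107 and 0.100 CPM in the CD38+ control libraries. The 3 groups did not overlap, and CD38+ control libraries held 0, 4 and 4 counts. FZD4 fell with GATA2 overexpression, by 1.55 ± 0.27 on the log2 scale (edgeR adjusted p = 4.95e-05). The contrast of CD90+ with CD38+ controls gave a log2 fold change of 5.89 ± 0.42 (edgeR adjusted p = 7.83e-10). About 18.9% of its exon length overlaps PRSS23 on the opposite strand, and PRSS23 averaged 7.09 CPM with GATA2 overexpression, 17.0 CPM in CD90+ controls and 5.95 CPM in CD38+ controls, so reads of the pair cannot be told apart if strand was not used in counting. FZD10, at chr12:130162459-130165740, had 0.258, 0.106 and 0.353 CPM in the GATA2 overexpression libraries, 1.79, 1.61 and 1.57 CPM in the CD90+ control libraries and 0 counts in the 3 CD38+ control libraries. It was lowest at 0 counts in CD38+ controls, at least 63.5-fold below CD90+ controls and at least 9.14-fold below GATA2 overexpression CD90+ cells. With GATA2 overexpression FZD10 fell by 2.78 ± 0.38 on the log2 scale (edgeR adjusted p = 8.68e-06). FZD9 had 1.29, 1.22 and 1.74 CPM in the GATA2 overexpression libraries, 1.87, 2.52 and 1.97 CPM in the CD90+ control libraries and 3.27, 3.502 and 3.71 CPM in the CD38+ control libraries, and unlike FZD4 and FZD10 it was highest in CD38+ controls. FZD9 fell with GATA2 overexpression, at a log2 fold change of -0.58 ± 0.20 (edgeR adjusted p = 0.0132), a call lost on leaving out CD90+ control replicate 2 (-0.44, adjusted p = 0.0842) or GATA2 overexpression replicate 2 (-0.48, adjusted p = 0.0597). CD90+ controls were below CD38+ controls at a log2 fold change of -0.72 ± 0.18 (edgeR adjusted p = 0.00195), and with library size scaling this was -0.31 (adjusted p = 0.135).

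FZD5 and FZD8 are paralogs used in canonical signalling. FZD5 had 3.62, 3.36 and 3.78 CPM in the GATA2 overexpression libraries, 7.48, 7.91 and 6.91 CPM in the CD90+ control libraries and 3.72, 3.61 and 3.104 CPM in the CD38+ control libraries. FZD8 had 0.258, 0.318 and 0.516 CPM in the GATA2 overexpression libraries, 0.766, 1.18 and 1.17 CPM in the CD90+ control libraries and 0.399, 0.508 and 0.426 CPM in the CD38+ control libraries. In both, CD90+ control libraries were highest, and the GATA2 overexpression and CD38+ control libraries overlapped. FZD5 fell with GATA2 overexpression, at a log2 fold change of -1.05 ± 0.13 (edgeR adjusted p = 1.66e-06). FZD8 fell by 1.51 ± 0.35 on the log2 scale (edgeR adjusted p = 0.000952). FZD5 in CD90+ controls against CD38+ controls was at a log2 fold change of 1.10 ± 0.13 (edgeR adjusted p = 9.22e-07). FZD8 was at a log2 fold change of 1.22 ± 0.34 (edgeR adjusted p = 0.00365).

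FZD3 and FZD6 are the Frizzleds of planar cell polarity in hair follicles and neural tube of the mouse. FZD3 had 17.5, 15.1 and 14.8 CPM in the GATA2 overexpression libraries, 16.3, 18.5 and 17.4 CPM in the CD90+ control libraries and 7.66, 7.08 and 6.58 CPM in the CD38+ control libraries. FZD6 had 23.1, 23.7 and 19.95 CPM in the GATA2 overexpression libraries, 18.5, 18.8 and 19.1 CPM in the CD90+ control libraries and 28.3, 28.6 and 28.4 CPM in the CD38+ control libraries. They differed in order: FZD3 was lowest and FZD6 highest in CD38+ controls, and the CD90+ groups overlapped for FZD3. FZD3 was not called with GATA2 overexpression, at a log2 fold change of -0.14 ± 0.09 (edgeR adjusted p = 0.173), but was called lower with library size (-0.39) and upper-quartile (-0.25) scaling and among genes with at least 1 CPM in 3 libraries (-0.23). FZD6 was called higher, at a log2 fold change of 0.24 ± 0.07 (edgeR adjusted p = 0.00302), though at -0.01 with library size scaling and 0.13 (adjusted p = 0.0851) with upper-quartile scaling. FZD3 in CD90+ relative to CD38+ controls was at a log2 fold change of 1.29 ± 0.09 (edgeR adjusted p = 1.3e-09). FZD6 was at a log2 fold change of -0.60 ± 0.06 (edgeR adjusted p = 2.35e-07).

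LRP5 and LRP6 are the canonical co-receptors. LRP5, at chr11:68312609-68449275, had 29.2, 31.7 and 29.3 CPM in the GATA2 overexpression libraries, 25.2, 27.3 and 24.04 CPM in the CD90+ control libraries and 65.8, 66.8 and 72.95 CPM in the CD38+ control libraries. LRP6 had 27.95, 24.2 and 23.4 CPM in the GATA2 overexpression libraries, 33.3, 34.4 and 33.6 CPM in the CD90+ control libraries and 31.2, 29.4 and 33.2 CPM in the CD38+ control libraries. LRP5 was highest in all CD38+ control libraries, and LRP6 was lowest in those with GATA2 overexpression, with CD38+ control libraries between them and the CD90+ control libraries. LRP5 was lower in CD90+ than in CD38+ controls, at a log2 fold change of -1.42 ± 0.06 (edgeR adjusted p = 3.46e-13). With GATA2 overexpression it was called higher than in CD90+ controls at a log2 fold change of 0.24 ± 0.06 (edgeR adjusted p = 0.00176), though at -0.01 with library size scaling and 0.12 (adjusted p = 0.075) with upper-quartile scaling. LRP6 fell with GATA2 overexpression, by 0.42 ± 0.07 on the log2 scale (edgeR adjusted p = 1.69e-05). Between CD90+ and CD38+ controls it was not called, at a log2 fold change of 0.11 ± 0.06 (edgeR adjusted p = 0.119), while RLE (0.16, adjusted p = 0.0299), library size (0.52) and upper-quartile scaling (0.38), DESeq2 (0.16), the fit of these groups alone (0.17), the filter at 1 CPM (0.19) and the fit without CD38+ control replicate 3 (0.16, adjusted p = 0.0464) called it higher.

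LGR4, LGR5 and LGR6 bind R-spondins. LGR4, at chr11:27365961-27472775, had 21.1, 20.03 and 18.3 CPM in the GATA2 overexpression libraries, 21.9, 20.8 and 21.3 CPM in the CD90+ control libraries and 4.09, 4.28 and 3.61 CPM in the CD38+ control libraries. The CD38+ control libraries were lowest, and the CD90+ groups overlapped. LGR4 was not called with GATA2 overexpression, at a log2 fold change of -0.10 ± 0.08 (edgeR adjusted p = 0.236), but was called lower with library size (-0.35) and upper-quartile (-0.22) scaling and with the filter at 1 CPM (-0.20). The contrast of CD90+ with CD38+ controls gave a log2 fold change of 2.42 ± 0.09 (edgeR adjusted p = 1.05e-13). LGR5, the marker of intestinal stem cells, had 0.387, 0.106 and 0.435 CPM in the GATA2 overexpression libraries, 0.471, 0.889 and 0.725 CPM in the CD90+ control libraries and 0 counts in the 3 CD38+ control libraries. LGR5 fell with GATA2 overexpression, at a log2 fold change of -1.16 ± 0.49 (edgeR adjusted p = 0.0434), and the call was lost on leaving out GATA2 overexpression replicate 1 (-1.36, adjusted p = 0.0516) or 2 (-0.75, adjusted p = 0.169), on leaving out CD90+ control replicate 2 (-0.94, adjusted p = 0.167) or 3 (-1.13, adjusted p = 0.0994) and in DESeq2 (-1.22, adjusted p = 0.0507). It was at least 26.8-fold higher in CD90+ than in CD38+ controls. LGR6 had 10, 20 and 3 counts in GATA2 overexpression, CD90+ control and CD38+ control libraries and was not tested.

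ROR1 and ROR2, receptor tyrosine kinase-like receptors of WNT5A, and RYK, an atypical kinase that binds Wnts, differed among themselves. ROR1, at chr1:63774022-64181498, had 1.06, 1.56 and 1.52 CPM in the GATA2 overexpression libraries, 7.99, 6.86 and 8.03 CPM in the CD90+ control libraries and 0.266, 0.294 and 0.125 CPM in the CD38+ control libraries. ROR2 had 2.56, 3.15 and 2.23 CPM in the GATA2 overexpression libraries, 5.64, 6.51 and 6.201 CPM in the CD90+ control libraries and 2.499, 2.06 and 2.65 CPM in the CD38+ control libraries. RYK had 42.2, 51.8 and 48.5 CPM in the GATA2 overexpression libraries, 41.8, 40.7 and 41.1 CPM in the CD90+ control libraries and 35.8, 35.5 and 35.8 CPM in the CD38+ control libraries. CD90+ control libraries were highest for ROR1 and ROR2, and GATA2 overexpression libraries were highest for RYK. ROR1 fell with GATA2 overexpression, at a log2 fold change of -2.46 ± 0.20 (edgeR adjusted p = 4.17e-09). ROR2 fell by 1.21 ± 0.16 on the log2 scale (edgeR adjusted p = 3.36e-06). RYK was called higher, at a log2 fold change of 0.20 ± 0.06 (edgeR adjusted p = 0.00467), though at -0.04 with library size scaling, 0.09 (adjusted p = 0.17) with upper-quartile scaling and 0.11 (adjusted p = 0.102) with the filter at 1 CPM. ROR1 in CD90+ relative to CD38+ controls was at a log2 fold change of 5.05 ± 0.25 (edgeR adjusted p = 6.15e-12). ROR2 was at a log2 fold change of 1.35 ± 0.16 (edgeR adjusted p = 9.04e-07). RYK was at a log2 fold change of 0.21 ± 0.06 (edgeR adjusted p = 0.00441). ROR1 remained above CD38+ controls with GATA2 overexpression, at 2.59 ± 0.28 (edgeR adjusted p = 2.17e-07), and ROR2 was not called there (0.14 ± 0.17, adjusted p = 0.46).

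**Figure D2:**
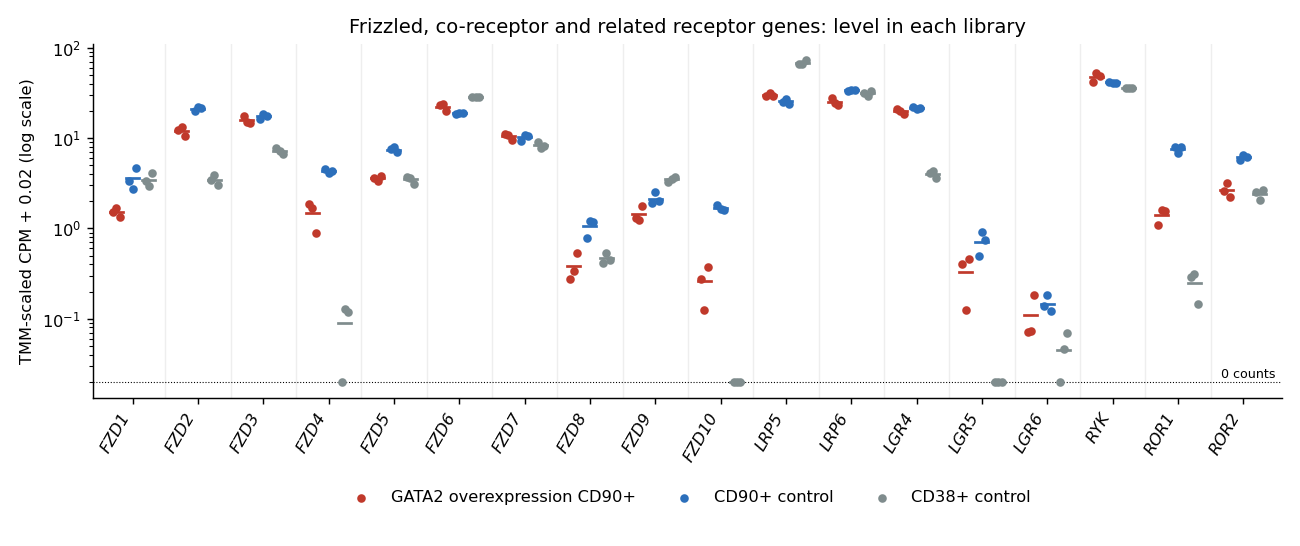
Level of the 18 receptor genes in each library, as TMM-scaled CPM plus 0.02 on a log axis, with a bar at the mean of each group of 3 and a dotted line at 0 counts. FZD4, FZD10 and LGR5 are near or at 0 counts in CD38+ controls, LRP5 is highest there, and FZD7 and LGR4 overlap between the CD90+ groups.

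**Figure D3:**
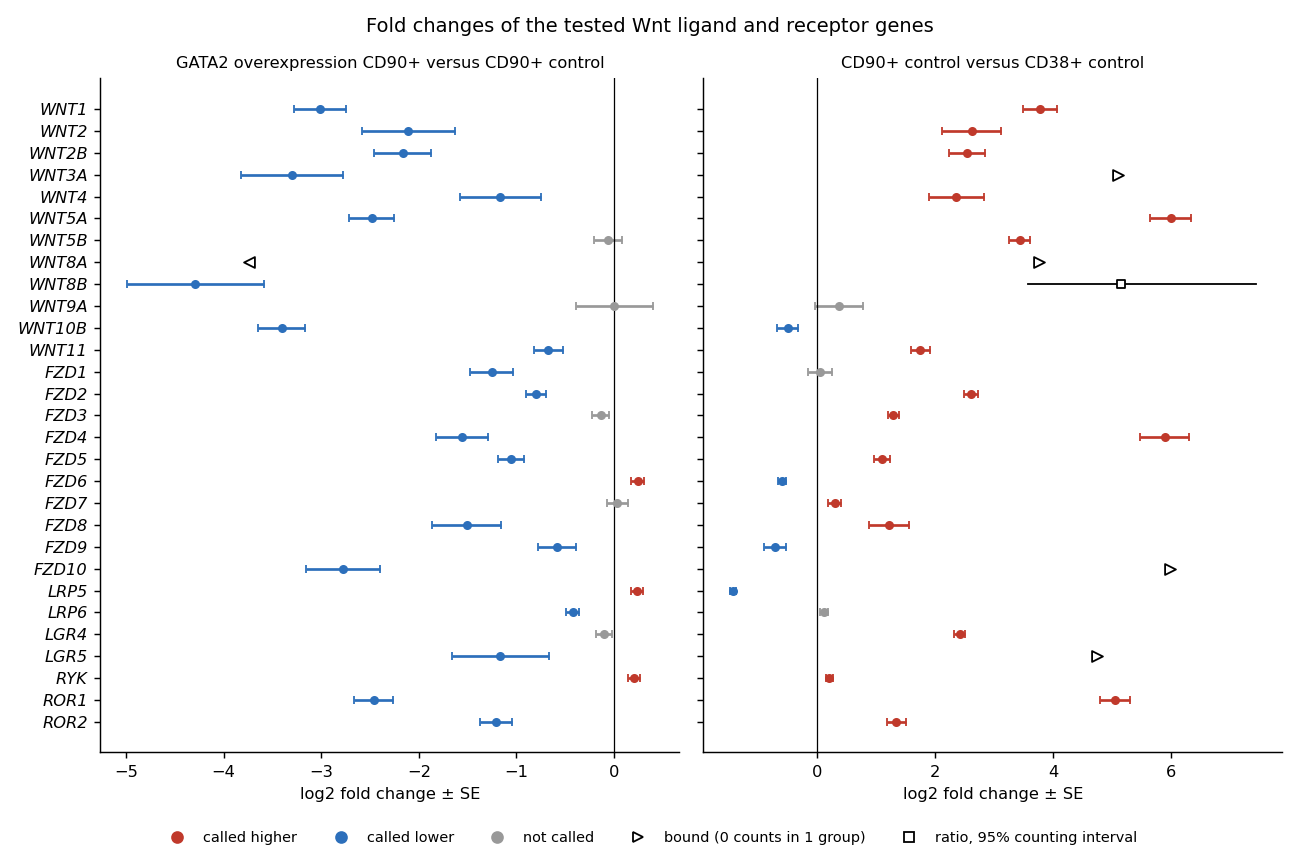
Log2 fold changes with SE of the 29 tested genes for GATA2 overexpression against CD90+ controls (left) and for CD90+ against CD38+ controls (right), coloured by call, with triangles for lower bounds and a square with a counting interval where a group held 0 or few counts. On the left 21 genes are called lower, where 39.6% of all genes tested were. The 3 called higher, FZD6, LRP5 and RYK, turn to -0.01, -0.01 and -0.04 with library size scaling. On the right 22 genes are called higher, where 41.1% of all genes tested were, and FZD6, FZD9, LRP5 and WNT10B lower. Without the 6 genes tested only through CD90+ controls, 15 of 23 are lower on the left and 16 of 23 higher on the right.

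Summed over the 18 ligands, GATA2 overexpression libraries held 20.2, 20.3 and 17.4 CPM, CD90+ control libraries 38.6, 39.5 and 38.7 CPM and CD38+ control libraries 8.43, 10.3 and 10.2 CPM. Ligands with counts in all 3 libraries of a group numbered 11, 17 and 10 in that order of groups. The Frizzled sum had means of 69.1 ± 5.12, 87.5 ± 3.41 and 58.2 ± 0.780 CPM (SD, n = 3 each). LRP5 and LRP6 together averaged 55.3 ± 2.27, 59.3 ± 2.16 and 99.8 ± 5.58 CPM.

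For the shares below, levels of different genes were compared only per kilobase of exon. With GATA2 overexpression WNT5B (2.46 ± 0.354 CPM per kb) and WNT11 (1.82 ± 0.0809 CPM per kb) led the ligands and made up 45.0% and 33.5% of the summed ligand level per kb. In CD90+ controls WNT11 (2.91 ± 0.0720 CPM per kb), WNT1 (2.87 ± 0.162 CPM per kb) and WNT5B (2.57 ± 0.246 CPM per kb) lay within or close to each other's spread, at 23.5%, 23.1% and 20.8%. In CD38+ controls WNT10B (1.68 ± 0.0673 CPM per kb) led with 50.3%, ahead of WNT11 at 25.5%. The leading ligand thus differed by group, and WNT1 and WNT10B together took a smaller share with GATA2 overexpression (6.47% ± 1.19 and 2.06% ± 0.613) than in CD90+ controls (23.1% ± 0.927 and 9.57% ± 1.53, SD, n = 3 each).

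Frizzled receptors were led by FZD2 (5.69 ± 0.665 CPM per kb) and FZD6 (5.47 ± 0.497 CPM per kb) with GATA2 overexpression, which lay within each other's spread. In CD90+ controls FZD2 (9.94 ± 0.543 CPM per kb) was above FZD6 (4.63 ± 0.0796 CPM per kb), and in CD38+ controls FZD6 (6.99 ± 0.0292 CPM per kb) was above FZD7 (2.15 ± 0.178 CPM per kb) and FZD2 (1.63 ± 0.213 CPM per kb). FZD6 made up 32.7%, 20.7% and 50.3% of the Frizzled level per kb in GATA2 overexpression, CD90+ control and CD38+ controls. LGR4 made up 97.5%, 95.4% and 99.1% of the LGR level per kb, so LGR5 and LGR6 were minor in every group. LRP5 made up 66.7%, 55.8% and 78.6% of the LRP5 and LRP6 level per kb, and RYK 89.95%, 70.1% and 90.8% of that of RYK, ROR1 and ROR2.

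**Figure D4:**
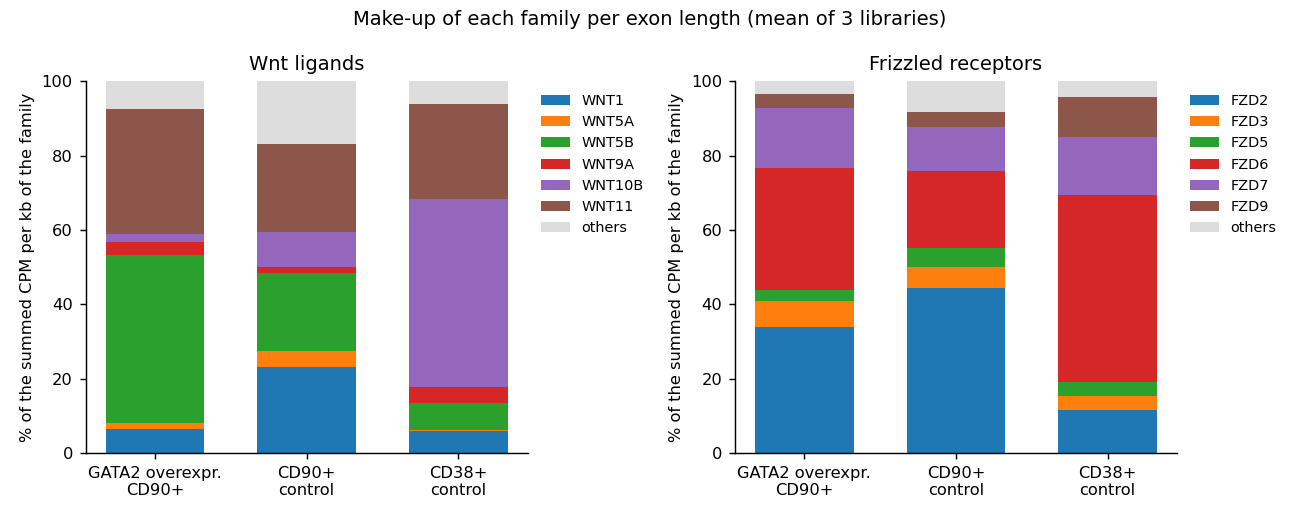
Share of each gene in the summed CPM per kb of exon of the Wnt ligands (left) and of the Frizzled receptors (right), as a percentage and the mean of 3 libraries per group. WNT5B leads the ligands with GATA2 overexpression at 45.0% and WNT10B in CD38+ controls at 50.3%. FZD6 ranges from 20.7% of the Frizzled level in CD90+ controls to 50.3% in CD38+ controls.

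Other genes of the pathway were read from 7 lists of 85 genes beyond the ligands and receptors, of which 82 were tested, DKK4 and WIF1 had too few counts and TBXT was not analysed here. Of these 44 fell and 17 rose with GATA2 overexpression relative to CD90+ controls, where 39.6% of all genes tested fell and 38.0% rose, and their median log2 fold change was -0.49. Between CD90+ and CD38+ controls 52 were higher and 21 lower, against 41.1% and 39.3% of all genes, with a median of 0.78. The same shares of all genes are the background of each list below. CDX1, CDX4, DAAM2, DKK2, RSPO1, SFRP4, SOST and TRABD2B were tested only through CD90+ controls and had to be high there. Without these 8, 38 of 74 fell and 17 rose with GATA2 overexpression, at a median of -0.41, and 44 were higher and 21 lower in CD90+ than in CD38+ controls, at a median of 0.63. The lower count there was 12 with library size scaling and 13 with upper-quartile scaling.

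Wnt secretion rests on PORCN, which attaches the lipid, and WLS, which carries the lipidated Wnt to the surface. WLS had 3.10, 3.05 and 3.89 CPM in the GATA2 overexpression libraries, 19.5, 21.2 and 19.6 CPM in the CD90+ control libraries and 0.372, 0.454 and 0.776 CPM in the CD38+ control libraries. The groups did not overlap, and CD90+ control libraries were far above the others. WLS fell with GATA2 overexpression, at a log2 fold change of -2.59 ± 0.15 (edgeR adjusted p = 5.28e-11). The contrast of CD90+ with CD38+ controls gave a log2 fold change of 5.22 ± 0.19 (edgeR adjusted p = 7e-14). PORCN moved the other way in both comparisons, with means of 16.5 ± 0.729 CPM with GATA2 overexpression, 11.3 ± 0.645 CPM in CD90+ controls and 21.4 ± 0.790 CPM in CD38+ controls (SD, n = 3 each). Its log2 fold change with GATA2 overexpression was 0.54 ± 0.07 (edgeR adjusted p = 4.02e-06). In the CD90+ controls it was below CD38+ controls, at a log2 fold change of -0.92 ± 0.07 (edgeR adjusted p = 3.83e-09).

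Of 6 R-spondin and receptor turnover genes 2 fell and 1 rose with GATA2 overexpression, and 5, among them RSPO1, which was tested only through CD90+ controls, were higher and 0 lower in CD90+ than in CD38+ controls. RSPO2, a secreted R-spondin, averaged 0.845 ± 0.192 CPM with GATA2 overexpression, 2.47 ± 0.0631 CPM in CD90+ controls and 0 in CD38+ controls. RSPO2 fell with GATA2 overexpression, at a log2 fold change of -1.54 ± 0.24 (edgeR adjusted p = 3.33e-05), and it was at least 94.7-fold higher in CD90+ than in CD38+ controls. RSPO3 was also at 0 in CD38+ controls, at least 73.1-fold below CD90+ controls, and was not called with GATA2 overexpression (-0.47 ± 0.24, edgeR adjusted p = 0.0882), while it was called lower with library size scaling (-0.72, adjusted p = 0.0138), with upper-quartile scaling (-0.59, adjusted p = 0.0384), among genes with at least 1 CPM in 3 libraries (-0.57, adjusted p = 0.0433) and on leaving out GATA2 overexpression replicate 1 (-0.63, adjusted p = 0.0498). RNF43, which removes Frizzleds from the surface, fell by 1.41 ± 0.29 on the log2 scale (edgeR adjusted p = 0.00028). RSPO4 was the 1 that rose, at a log2 fold change of 1.08 ± 0.26 (edgeR adjusted p = 0.00127).

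Of 16 tested secreted and surface inhibitors 10 fell and 3 rose with GATA2 overexpression, and 13 were higher and 2 lower in CD90+ than in CD38+ controls. DKK2, SFRP4, SOST and TRABD2B are part of these counts although they were tested only through CD90+ controls. Of the other 12 inhibitors 7 fell and 3 rose with GATA2 overexpression, at a median log2 fold change of -0.81, and 9 were higher and 2 lower in CD90+ than in CD38+ controls. SFRP5, a secreted Frizzled-related decoy, had 32.3, 34.8 and 35.5 CPM in the GATA2 overexpression libraries, 4.85, 4.44 and 4.71 CPM in the CD90+ control libraries and 0.160, 0.160 and 0.150 CPM in the CD38+ control libraries. FRZB, another decoy of the family, had 59.03, 61.7 and 59.7 CPM in the GATA2 overexpression libraries, 157, 158 and 161 CPM in the CD90+ control libraries and 0.771, 0.668 and 0.401 CPM in the CD38+ control libraries. Both had groups that did not overlap and were near 0 in CD38+ controls, and they moved in opposite directions between the CD90+ groups. SFRP5 rose with GATA2 overexpression, at a log2 fold change of 2.87 ± 0.09 (edgeR adjusted p = 6.7e-15). FRZB fell, at a log2 fold change of -1.40 ± 0.04 (edgeR adjusted p = 9.4e-15). NOTUM, which strips the lipid from Wnts, rose by 1.40 ± 0.13 on the log2 scale (edgeR adjusted p = 2.11e-08), with means of 10.04 ± 0.868, 3.79 ± 0.175 and 2.21 ± 0.0889 CPM in GATA2 overexpression, CD90+ control and CD38+ controls.

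Of 23 Dishevelled and destruction complex genes 12 fell and 5 rose with GATA2 overexpression, and 7 were higher and 9 lower in CD90+ than in CD38+ controls. The 9 are 39.1% of the list, beside 39.3% of all genes, and the 7 are 30.4%, beside 41.1%. CTNNB1, which encodes beta-catenin, averaged 87.5 ± 0.570 CPM with GATA2 overexpression, 164 ± 1.64 CPM in CD90+ controls and 175 ± 0.615 CPM in CD38+ controls. It fell with GATA2 overexpression, by 0.91 ± 0.02 on the log2 scale (edgeR adjusted p = 2.26e-15). Between CD90+ and CD38+ controls it was at -0.09 ± 0.02 (edgeR adjusted p = 0.00194), and at 0.32 and 0.17 with library size and upper-quartile scaling, so its direction there rests on the scaling. AXIN2, a scaffold of the complex and a feedback target, had 0.387, 0.424 and 0.680 CPM in the GATA2 overexpression libraries, 2.69, 2.94 and 2.54 CPM in the CD90+ control libraries and 0.186, 0.160 and 0.200 CPM in the CD38+ control libraries. AXIN2 fell with GATA2 overexpression, at a log2 fold change of -2.45 ± 0.25 (edgeR adjusted p = 1.1e-07). The contrast of CD90+ with CD38+ controls gave a log2 fold change of 3.88 ± 0.29 (edgeR adjusted p = 1.71e-09). Of the casein kinases CSNK1E rose, by 0.46 ± 0.04 on the log2 scale (edgeR adjusted p = 4.09e-09) and CSNK1D fell, at a log2 fold change of -0.31 ± 0.02 (edgeR adjusted p = 2.96e-09). DVL3, a Dishevelled, was lower in CD90+ than in CD38+ controls, at a log2 fold change of -0.90 ± 0.03 (edgeR adjusted p = 9.89e-14).

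TCF/LEF factors and cofactors were divided, with 9 of 15 lower and 5 higher with GATA2 overexpression, and 9 higher and 6 lower in CD90+ than in CD38+ controls. LEF1 had 43.5, 45.3 and 43.1 CPM in the GATA2 overexpression libraries, 23.8, 23.8 and 21.5 CPM in the CD90+ control libraries and 8.35, 7.75 and 9.24 CPM in the CD38+ control libraries. The groups did not overlap, with GATA2 overexpression libraries highest and CD38+ control libraries lowest. LEF1 rose with GATA2 overexpression, at a log2 fold change of 0.93 ± 0.06 (edgeR adjusted p = 5.05e-10). CTBP2, a corepressor, rose by 0.66 ± 0.04 on the log2 scale (edgeR adjusted p = 9.34e-11). TLE3, a Groucho corepressor, fell, at a log2 fold change of -0.84 ± 0.06 (edgeR adjusted p = 2.99e-10). TLE1 was higher in CD90+ than in CD38+ controls, at a log2 fold change of 3.27 ± 0.08 (edgeR adjusted p = 5.7e-16).

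Feedback targets of beta-catenin fell for 11 of 18 and rose for 4 with GATA2 overexpression, and were higher for 17 and lower for 1 in CD90+ than in CD38+ controls. CDX1, CDX4 and LGR5 had to be high in CD90+ controls to be tested, and of the other 15 targets 8 fell and 4 rose with GATA2 overexpression, at a median log2 fold change of -0.99, while 14 were higher and 1 lower in CD90+ than in CD38+ controls. The list shares genes with the lists above and holds LGR5, and MYC and CCND1 have many other known inputs. MYC averaged 171 ± 5.66 CPM with GATA2 overexpression, 76.8 ± 1.62 CPM in CD90+ controls and 50.9 ± 0.743 CPM in CD38+ controls. MYC rose, at a log2 fold change of 1.15 ± 0.03 (edgeR adjusted p = 3.03e-15). CCND1, a D-type cyclin, fell, at a log2 fold change of -0.99 ± 0.06 (edgeR adjusted p = 1.7e-10). The targets thus did not move as 1 block. Of 13 planar cell polarity genes 5 fell and 1 rose with GATA2 overexpression, and 10 were higher and 3 lower in CD90+ than in CD38+ controls. The 5 are 38.5% of the list, close to the 39.6% of all genes that fell, and 1 of the 5 is DAAM2, tested only through CD90+ controls. CELSR1, a polarity cadherin, fell, at a log2 fold change of -3.48 ± 0.31 (edgeR adjusted p = 1.62e-08). VANGL1 rose by 0.54 ± 0.06 on the log2 scale (edgeR adjusted p = 1.15e-07). DAAM1, a formin, fell by 0.71 ± 0.07 on the log2 scale (edgeR adjusted p = 1.42e-07). PRICKLE1 was higher in CD90+ than in CD38+ controls, at a log2 fold change of 3.48 ± 0.10 (edgeR adjusted p = 4.98e-15), and INTU was at a log2 fold change of 2.76 ± 0.20 (edgeR adjusted p = 1.05e-09).

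**Figure D5:**
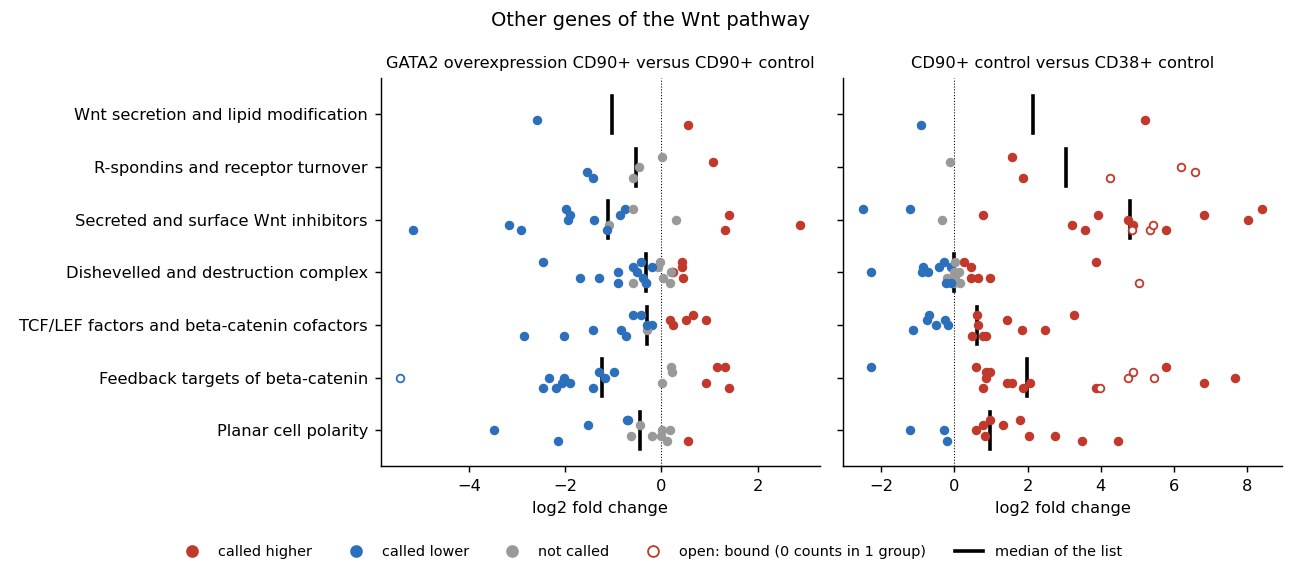
Log2 fold changes of the tested genes of 7 pathway lists for GATA2 overexpression against CD90+ controls (left) and CD90+ against CD38+ controls (right), 1 point per gene coloured by call, with open points for lower bounds and a bar at the median of each list. Inhibitors and feedback targets have medians of -1.11 and -1.23 on the left, with points on both sides of 0. Without the genes tested only through CD90+ controls these medians are -0.81 and -0.99.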

How the data were processed

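RNA was sequenced from 9 libraries of cells made from H1 embryonic stem cells, 3 per group, and all 9 were used. The authors deposited raw counts of reads per gene, made with HISAT2 and featureCounts on hg38 per the submitters' processing notes; no source used here gives versions or says whether strand was used in counting, while per the labels the libraries were strand-specific. Without strand, reads of antisense neighbours cannot be told apart.

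From these counts, edgeR 4.0.16 (R 4.3.3) gave TMM factors and quasi-likelihood tests from 1 fit of group means to all 9 libraries. Genes passed its filter with a minimum count of 10 and a minimum total of 15, and p-values were adjusted by Benjamini-Hochberg over 16232 genes. SEs are the size of the log2 fold change divided by the root of F. Where a whole group had 0 counts, its limit was put at 3 counts summed over its libraries, and against 1 to 3 counts a ratio with a 95% interval is given. Floors and intervals cover counting error only. Libraries of a group differed by more than sampling noise (chi-square per degree of freedom 3.96 to 7.84), so each counted once.

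All ligand and receptor genes were described, by library where they were tested and averaged at least 1 CPM in a group. WNT3A, WNT8A, WNT8B, WNT9A and LGR5, outside that rule, are also given by library, chosen after their values were seen. Of each pathway list the genes named were the 3 with the lowest adjusted p with GATA2 overexpression relative to CD90+ controls and the 2 lowest in CD90+ relative to CD38+ controls. GATA2, THY1 and CD38 check the labels. The members and lists were chosen with earlier results of these data known. Exon lengths and gene positions came from GENCODE 29 (GRCh38), and promoters from RefSeq. Protein sequences were not analysed here. Scripts were tested on simulated data. Alternatives were RLE, library size and upper-quartile scaling, other filters, DESeq2 1.42.0, limma voom 3.58.1, fits of 2 groups, a replicate block and leaving out each library. Figures were drawn with matplotlib 3.10.9.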

Additional observations from a re-analysis of the deposited data

How the results depend on the processing

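With GATA2 overexpression relative to CD90+ controls, the 3 genes called higher became 0 with library size and with upper-quartile scaling, while 23 were called lower in both. Under these scalings the all-gene median shifted by -0.25 and -0.11 (log2), and the share of higher among all calls was 35.5% and 42.8%, against 49.0% with TMM. In CD90+ relative to CD38+ controls the ligand and receptor genes called lower were 2 with library size scaling, and the pathway genes called lower were 12 with library size and 13 with upper-quartile scaling. There the all-gene median shifted by 0.41 and 0.26, and the share of higher calls was 71.2% and 64.3%, against 51.2%. For GATA2 overexpression relative to CD38+ controls the shifts were 0.16 and 0.15. Leaving out each library in turn, genes called higher numbered 3 to 3 and lower 20 to 22 in the first comparison, 22 to 25 and 3 to 4 in CD90+ relative to CD38+ controls, and 13 to 15 and 6 to 6 in the third. Pathway genes numbered 17 to 18 higher and 42 to 45 lower, 50 to 52 and 19 to 21, and 41 to 43 and 21 to 23 in the same order. Same-numbered libraries of different groups had deviations correlated at -0.029 to 0.026, so they share only a number. With the replicate block, 3 genes were higher and 20 lower, then 22 and 4, then 14 and 6, and LGR5 was the ligand or receptor whose call was lost in the first comparison (adjusted p = 0.0774 in edgeR).

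Directions reversed for few genes, mostly near 0, and the cause was not tested. With GATA2 overexpression relative to CD90+ controls, FZD7 was at -0.018 with RLE, -0.22 with library size, -0.081 with upper-quartile scaling, -0.063 with the filter at 1 CPM and -0.017 in DESeq2, and at -0.026 to 0.094 with a library left out. WNT9A was at -0.047 with RLE, -0.24 with library size, -0.11 with upper-quartile scaling, -0.047 in DESeq2, -0.012 in limma voom, -0.0052 in the fit of these groups alone and -0.17 to 0.18 with a library left out. With library size scaling FZD6 was at -0.0057, LRP5 at -0.013, RYK at -0.043, DVL3 at -0.038 and PRICKLE1 at -0.13. WNT5B was at -0.14 to 0.042 with a library left out. Between CD90+ and CD38+ controls, RSPO4, CTNNB1, CSNK1D and VANGL1 were at 0.29, 0.32, 0.18 and 0.21 with library size and at 0.14, 0.17, 0.029 and 0.061 with upper-quartile scaling. With a library left out, WNT9A was at -0.052 to 0.65, FZD1 at -0.20 to 0.22 and RSPO4 at -0.21 to 0.022. For GATA2 overexpression relative to CD38+ controls, WNT8B was at -0.13 in limma voom. With a library left out it was at -3.33 to 1.54, the lowest being a fitted value with 0 counts in 1 group, WNT9A was at -0.043 to 0.65, FZD5 at -0.028 to 0.099 and WNT2 at -0.055 to 1.19. Over the single-gene values of ligands and receptors, 387, 411 and 394 alternatives kept direction and call in the 3 comparisons. In the same order 22, 3 and 5 reversed direction, with or without a change of call. Among those that kept direction, 13, 6 and 5 lost a call and 6, 8 and 5 gained a call. FZD6, LRP5 and RYK with library size scaling in the first comparison are counted as reversed, and they lost their calls too. Genes under the filter, with few counts, limit what can be said of WNT3, WNT6, WNT7A, WNT7B, WNT10A, WNT16 and LGR6.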

Other observations

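Among the feedback targets outside the rule for named genes, the caudal homeobox genes CDX1, CDX2 and CDX4, which regulate HOX genes in the posterior embryo, were chosen after their values were seen. CDX4 had 0 counts in the 3 libraries with GATA2 overexpression, 69, 60 and 48 counts in the CD90+ control libraries and 0 counts in the 3 CD38+ control libraries, so it was at least 42.9-fold lower with GATA2 overexpression than in CD90+ controls. CDX2 averaged 0.986 ± 0.280 CPM with GATA2 overexpression, 4.14 ± 0.368 CPM in CD90+ controls and 0.978 ± 0.436 CPM in CD38+ controls (SD, n = 3 each). CDX1 had 10, 64 and 0 counts in GATA2 overexpression, CD90+ control and CD38+ control libraries. All 3 CDX genes lay lower in every GATA2 overexpression library than in any CD90+ control library, as did 41.1% of all genes tested. CDX1 and CDX4 were tested only through CD90+ controls and had to be high there.

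The inhibitor DKK1, a secreted LRP5 and LRP6 antagonist also chosen after its values were seen, went the other way. It averaged 11.2 ± 0.807 CPM with GATA2 overexpression, 4.46 ± 0.404 CPM in CD90+ controls and 0.0791 ± 0.0969 CPM in CD38+ controls, and the CD90+ groups did not overlap. SFRP2, a secreted Frizzled-related protein chosen in the same way, averaged 4.03 ± 0.334, 16.0 ± 0.558 and 0.0446 ± 0.0772 CPM in the same order of groups.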
